A study of Oncorhynchus mykiss with 18 samples.

Results

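H3K36me3, trimethylation of a lysine in the tail of histone H3, was compared genome-wide between the testes of 2 rainbow trout (*Oncorhynchus mykiss*), TAC-1, of *Prdm9* genotype 1/5, and TAC-3, of genotype 2/6. All 202579 peaks of the H3K36me3 lists of these individuals were used, 162044 in TAC-1 and 40535 in TAC-3, of the 409541 peaks in the 7 lists of the series. A peak was called shared when it had at least 1 bp in common with a peak of the other individual, and private otherwise. The study addressed whether PRDM9 places meiotic recombination hotspots in salmonids, and also mapped H3K4me3 in both individuals and DMC1-bound single-stranded DNA (DMC1-SSDS) in TAC-1, TAC-3 and another individual, RT-52 (genotype 1/2). Both testes were at maturation stage III and came from the strain INRA-AUT. TAC-1 and TAC-3 have no *Prdm9* allele in common. The genotypes are those of the study's methods, and each was represented by 1 individual, so that genotype and individual cannot be told apart. The ChIP-seq was done in 2 replicates per individual, but each list combines both replicates. No spread between replicates could therefore be obtained, and the differences below are descriptions of 2 lists with no test. The intervals are 95% Wilson intervals over peaks and cover counting error only. In a whole testis, fewer cells of a type and less of the mark per cell cannot be told apart.

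H3K36me3 is laid down mainly by SETD2, which travels with elongating RNA polymerase II, so that the mark covers the bodies of transcribed genes. H3K4me3, in contrast, sits at promoters and other regulatory elements. PRDM9, a zinc-finger methyltransferase of meiotic prophase, adds both marks to nucleosomes next to the DNA motif bound by its zinc fingers, so that both marks at 1 site is the known signature of PRDM9 binding.

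The lists differed in length, in width and in the company of H3K4me3. TAC-1 had 3.998 times as many peaks as TAC-3 and 1.77 times the covered length, with 124.6 Mb (5.58% of the chromosomes) in TAC-1 and 70.4 Mb (3.15%) in TAC-3. The median width was 368 bp in TAC-1 (interquartile range 225 to 931 bp) and 976 bp in TAC-3 (312 to 2276 bp). An H3K4me3 peak of the same individual touched 101112 of the 162044 TAC-1 peaks (62.4%, 95% interval 62.2% to 62.6%) and 4364 of the 40535 TAC-3 peaks (10.8%, 10.5% to 11.1%). The H3K36me3 list of TAC-1 thus lay largely on the H3K4me3 list of that individual, which held 153665 peaks with a median width of 367 bp. The study lists more mapped reads for the TAC-1 than for the TAC-3 libraries, and 1 input library for TAC-1 against 2 for TAC-3. Their part in these differences was not tested. The comparison was repeated with the 40535 highest-score TAC-1 peaks, as many as TAC-3 has (length-matched below), and with the peaks touching no H3K4me3 peak of the same individual.

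The width of the peaks had more than 1 mode in each list. The authors joined narrow peaks closer than 1 kb, so that a broad peak can be several calls with the gaps between them. Peaks under 500 bp made up 57.8% of TAC-1 and 35.2% of TAC-3, and peaks of at least 5000 bp made up 1.00% of TAC-1 (1628 peaks) and 7.54% of TAC-3 (3055 peaks). The wide peaks held 8.98% of the covered length in TAC-1 against 34.1% in TAC-3. The length-matched TAC-1 peaks had a median width of 786 bp, and 3.14% of them reached 5000 bp. The widest TAC-1 peak (27393 bp, chr16:39906048-39933440 of USDA_OmykA_1.1) lay in *huwe1*, which encodes a ubiquitin ligase. It overlapped a TAC-3 peak of 36287 bp, the third widest of that list. The widest TAC-3 peaks lay in LOC110532229 (42475 bp, on 12 TAC-1 peaks) and in *dync1h1*, the heavy chain of cytoplasmic dynein (38444 bp, on 4 TAC-1 peaks).

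**Figure D1:**
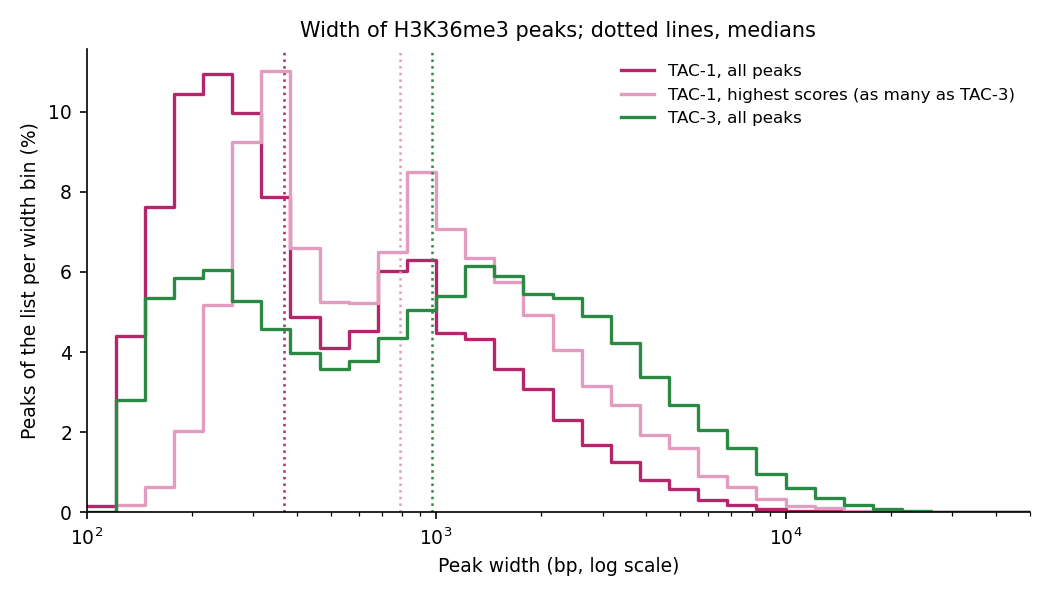
Width of the H3K36me3 peaks (bp, log scale) against the percentage of the peaks of each list per width bin, for all TAC-1 peaks, the highest-score TAC-1 peaks and all TAC-3 peaks. Dotted lines are medians (368, 786 and 976 bp), and each list has a narrow and a broad group of widths, with the broad one reaching further in TAC-3.

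Most TAC-3 peaks had a counterpart in TAC-1, whereas most TAC-1 peaks were private. Of the TAC-1 peaks, 34008 (21.0%, 95% interval 20.8% to 21.2%) were shared, and of the TAC-3 peaks, 29858 (73.7%, 73.2% to 74.1%). Merging both lists gave 168148 regions, of which 29435 (17.5%) were found in both individuals, 128036 (76.1%) in TAC-1 only and 10677 (6.35%) in TAC-3 only. By length, the 40.6 Mb in common made up 32.1% of the TAC-1 peaks and 56.8% of the TAC-3 peaks.

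These shares changed with the number of highest-score TAC-1 peaks kept. With the length-matched TAC-1 peaks, 17008 TAC-1 peaks (42.0%, 95% interval 41.5% to 42.4%) and 15668 TAC-3 peaks (38.7%, 38.2% to 39.1%) were shared. Of the 1000 highest-score TAC-1 peaks, 76.4% were shared, of 5000 70.1%, of 20000 51.5% and of 80000 31.8%. Each TAC-1 peak was compared with the full TAC-3 list, so that the TAC-1 share changed with the scores of the peaks kept, not with their number. In turn, the TAC-3 peaks that found a counterpart were 1.88%, 8.39%, 23.9% and 56.5% of the list at these lengths. A short TAC-1 list can meet only few TAC-3 peaks, so that these TAC-3 shares are in part fixed by its length. With peaks touching H3K4me3 of the same individual taken out of both lists, 17040 of 60932 TAC-1 peaks (28.0%) and 15343 of 36171 TAC-3 peaks (42.4%) were shared. This also took away counterparts in the other list. Against the full TAC-1 list, 27362 of the 35478 TAC-3 peaks on chromosomes without H3K4me3 were shared. At equal length, the peaks left in both lists were shared in 39.8% of TAC-1 and 36.1% of TAC-3.

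Strong and wide peaks were shared more often than weak and narrow ones in both individuals. In the lowest and highest score deciles, 6.23% and 54.4% of the TAC-1 peaks were shared, against 56.8% and 87.9% of the TAC-3 peaks. The order was kept within widths. Among TAC-1 peaks of at least 3000 bp, 89.9% of those above the median score and 58.9% of the others were shared, and among TAC-1 peaks under 300 bp, 14.8% and 6.60%. Among TAC-3 peaks of at least 3000 bp, 97.8% and 93.9% were shared, and under 300 bp, 57.9% and 55.9%. Score made the smallest difference in the narrow TAC-3 peaks. A longer peak also has more base pairs to meet a peak of the other list, so that part of the relation with width is fixed by the definition of a shared peak.

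**Figure D2:**
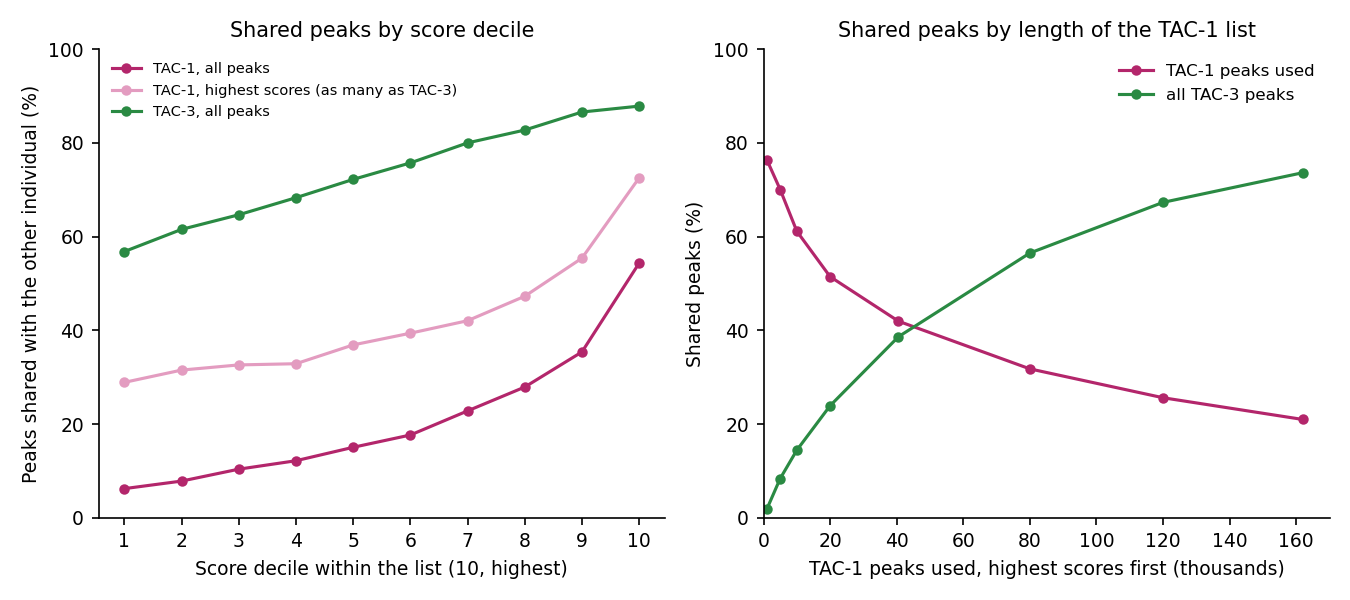
Left, percentage of peaks shared with the other individual (y axis) by score decile within each list (x axis, 10 the highest), for all TAC-1 peaks, the highest-score TAC-1 peaks and all TAC-3 peaks. Right, percentage of shared TAC-1 and TAC-3 peaks (y axis) against the number of TAC-1 peaks used, highest scores first (in units of 1000), where the lines cross near the length of the TAC-3 list (42.0% in TAC-1 and 38.7% in TAC-3). Most overlaps join single peaks, so lists of equal length must have close shares, and the place of the crossing is no result.

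At shared places the peaks were wider in TAC-3, with joined gaps counted in the width. In the 34431 overlapping pairs of peaks, the median width was 963 bp in TAC-1, against 1615 bp in TAC-3, and the TAC-1 peak was the wider one in 36.97% of pairs. The TAC-1 peak lay entirely inside the TAC-3 peak in 39.8% of pairs, and the TAC-3 peak inside the TAC-1 peak in 20.7%. Of the shared TAC-3 peaks, 3676 (12.3%) held several TAC-1 peaks, up to 12, whereas 412 shared TAC-1 peaks (1.21%) held several TAC-3 peaks, up to 4. Across pairs, ranks correlated with a Spearman's rho of 0.40 for score and 0.45 for width. A peak with several overlaps entered once per overlap, so that TAC-3 peaks on several TAC-1 peaks weigh more in all values over pairs. With each shared peak counted once, the median width was 1275 bp for TAC-3 peaks and 948 bp for TAC-1 peaks, a smaller gap in the same direction. The percentages of pairs were not recomputed in this way. Pairs on 1 gene are not independent, and score and width each come from the depth of their own libraries.

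Private peaks were narrower than shared ones. The median width was 322 bp for private and 948 bp for shared TAC-1 peaks, and 408 bp for private and 1275 bp for shared TAC-3 peaks. They also differed in how far away the other individual's nearest peak was. The median distance was 36450 bp for private TAC-1 peaks and 3024 bp for private TAC-3 peaks, and 13.8% of private TAC-1 peaks and 67.5% of private TAC-3 peaks had a peak of the other individual within 5000 bp. The longer TAC-1 list leaves less room between its peaks, which shortens the distance measured from TAC-3.

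Apart from the first TAC-1 peak, the highest scores fell on shared peaks in both lists. The 3 highest private peaks held ranks 1, 10 and 11 by score in TAC-1, and ranks 4, 7 and 13 in TAC-3. The highest score of TAC-1 (39300) belonged to a private peak of 335 bp at chr7:7575516-7575850, outside genes and 48791 bp from LOC110495388, and it touched an H3K4me3 peak of TAC-1. The next 2 scores (30338 and 15009) belonged to shared peaks on unplaced scaffolds, and the fourth (10370) to a shared peak in LOC110490803 at chr15:73007399-73008822. The other high private TAC-1 peaks lay in LOC110533643 (384 bp, score 8616) and LOC110513526 (793 bp, score 8049). In TAC-3, the highest scores were those of shared peaks in LOC118942868 (232 bp, score 6896) and in *cdk20*, which encodes a cyclin-dependent kinase (151 bp, score 4783). The highest private TAC-3 peak on a chromosome was at chr15:13386690-13387757 (score 2346), 6866 bp from LOC110489606, and the following one (245 bp, score 1977) was 357127 bp from *klhl18*. Scores are not compared between individuals.

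H3K36me3 peaks were spread over all 32 chromosome sequences, with a partly common order of densities. TAC-1 had 60.5 peaks per Mb on chromosome 13 to 80.1 on chromosome 5, with a median of 72.7. TAC-3 had 13.7 peaks per Mb on chromosome 31 to 20.7 on chromosome 5, with a median of 17.8. Chromosome 5 was thus the densest in both. Chromosome 13 stood lowest in TAC-1 and near the median in TAC-3 (17.6 peaks per Mb), and had the most protein-coding genes per Mb (26.9, against a median of 17.7). The ratio of the number of peaks in TAC-1 over TAC-3 was therefore lowest on chromosome 13 (3.44), and it was highest on chromosome 31 (4.75), around a median of 4.07 (SD 0.286 over chromosomes). In covered base pairs the median ratio was 1.78. On chromosome Y, TAC-1 had 73.8 and TAC-3 17.2 peaks per Mb. Over the 32 chromosomes, the densities of both individuals correlated with Pearson's r = 0.65 (Spearman's rho = 0.60), and with r = 0.81 (rho = 0.78) for the length-matched TAC-1 peaks. These points share the gene content and the assembly of each chromosome.

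With the length-matched peaks the excess of TAC-1 on chromosome 31 shrank to a ratio of 1.07, still the highest, and chromosome 13 was at 1.00. The lowest was then chromosome 4, at 0.864. The share of shared peaks varied little between chromosomes. It was 17.9% (chromosome 31) to 23.9% (chromosome 13) in TAC-1 and 68.6% (chromosome 26) to 77.0% (chromosome Y) in TAC-3. Median widths were 332 to 395 bp in TAC-1, against 830 to 1168.5 bp in TAC-3, so that every chromosome had wider peaks in TAC-3.

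**Figure D3:**
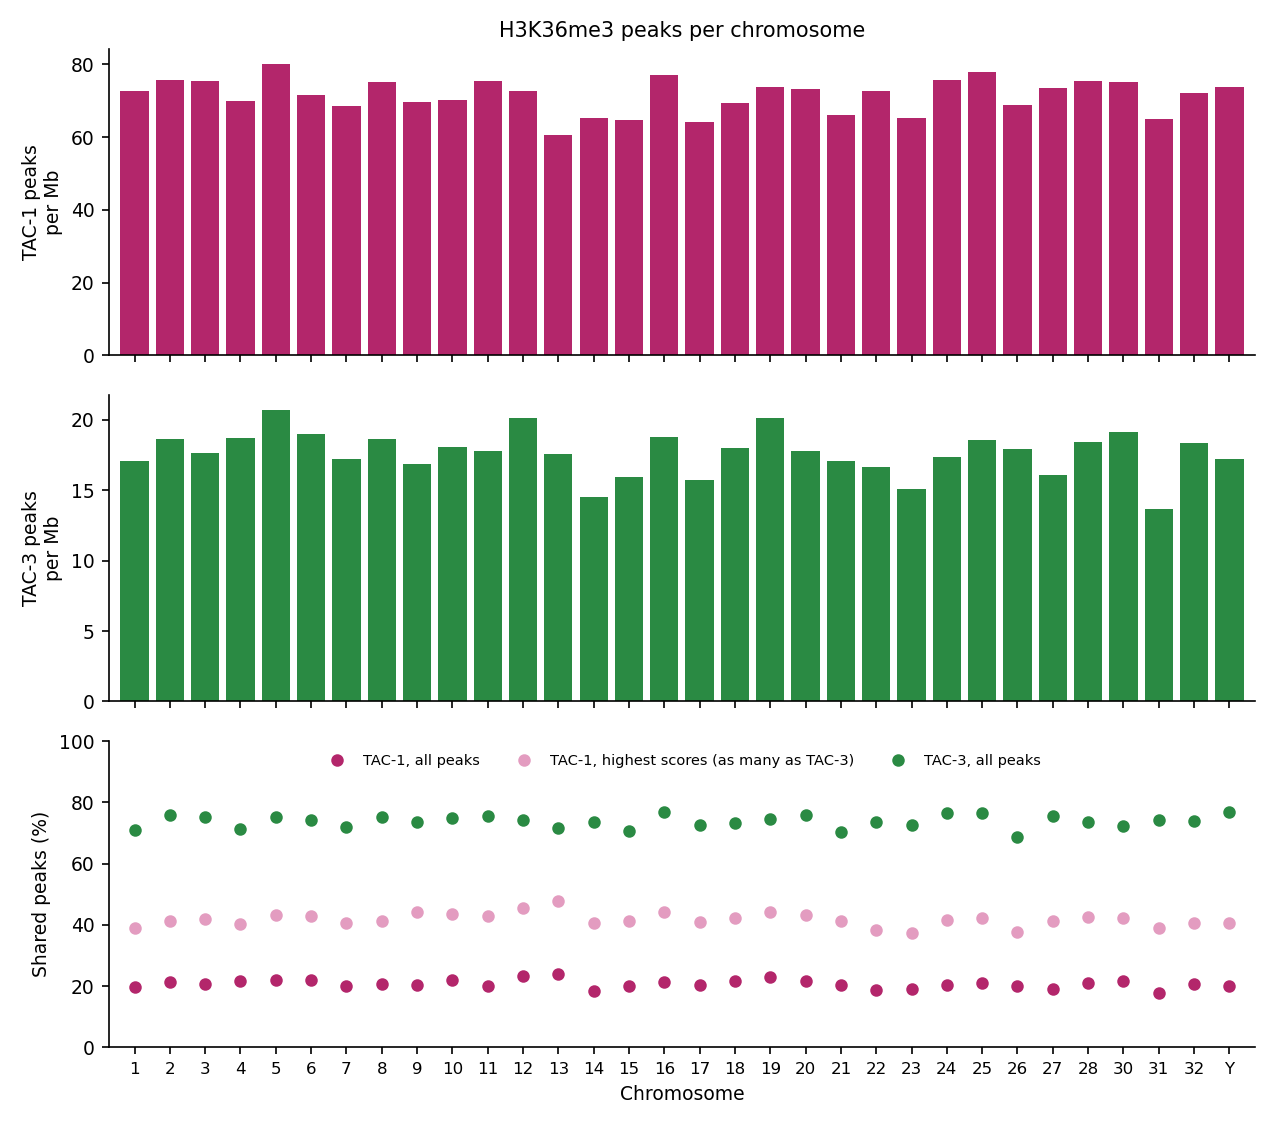
H3K36me3 peaks per Mb of each chromosome in TAC-1 (top) and TAC-3 (middle), and percentage of shared peaks (bottom) for all TAC-1 peaks, the highest-score TAC-1 peaks and all TAC-3 peaks. Density spans 60.5 to 80.1 peaks per Mb in TAC-1 and 13.7 to 20.7 in TAC-3, each panel on its own scale, and the shared share is nearly level over chromosomes.

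Along chromosomes, both individuals had fewer peaks towards the ends. The outer 10% at each end, which is 20% of the length, held 15.6% of the TAC-1 peaks (95% interval 15.5% to 15.8%), 17.2% of the TAC-3 peaks (16.9% to 17.6%) and 16.7% of the length-matched TAC-1 peaks. By covered length the order was reversed, with 15.3% in TAC-1 and 13.7% in TAC-3. Protein-coding genes were depleted there as well, with 15.5% of them in these ends. In 30 bins of relative position, the density over the even one ranged between 0.749 and 1.203 in TAC-1, and between 0.743 and 1.21 in TAC-3. The ends themselves differed in the last bin of the assembly's orientation, at 0.807 in TAC-1 and 1.01 in TAC-3, but not in the first, at 0.759 in TAC-1 and 0.743 in TAC-3. The length-matched TAC-1 peaks were at 0.906 in the last bin and 0.776 in the first.

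By number, private TAC-3 peaks did not follow this depletion. The ends held 19.7% of private TAC-3 peaks (95% interval 18.9% to 20.4%) and 16.4% of shared TAC-3 peaks (15.9% to 16.8%). In TAC-1, they held 15.7% of private and 15.4% of shared peaks. TAC-3 peaks were also narrower at the ends. Their median width was 759 bp in the first bin and 866 bp in the last, and reached 1190.5 bp at its highest, in bin 20. With all TAC-1 peaks, medians stayed between 347 and 403 bp in all 30 bins. Medians of the length-matched TAC-1 peaks were 769 bp in the first bin and 782 bp in the last. They were lowest in bin 28 (630 bp) and highest in bin 19 (885 bp).

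**Figure D4:**
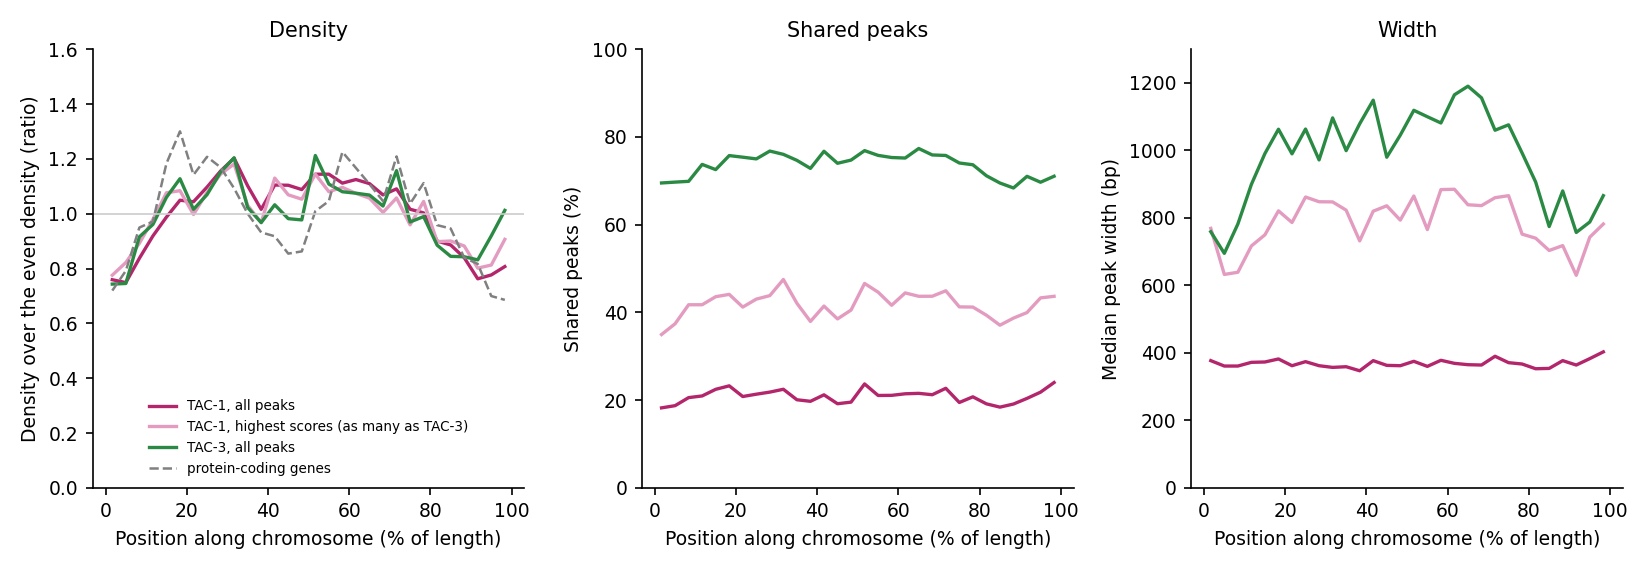
Peaks along chromosomes in 30 bins of relative position (x axis, % of length), for all TAC-1 peaks, the highest-score TAC-1 peaks and all TAC-3 peaks. Left, density over the even density, with protein-coding genes dashed. Middle, percentage of shared peaks. Right, median width, which dips at the ends in TAC-3 (759 and 866 bp) and is flat for all TAC-1 peaks (347 to 403 bp). For the highest-score TAC-1 peaks it spans 630 bp (bin 28) to 885 bp (bin 19).

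At a finer scale, the median number of peaks in the 2215 full windows of 1 Mb was 72 in TAC-1 (10 to 143) and 17 in TAC-3 (0 to 65). The counts of both individuals had a Spearman's rho of 0.69 over windows, and 0.75 for the length-matched TAC-1 peaks. Neighbouring windows and gene content are shared between these points. The richest TAC-1 window was chr11:37000001-38000000, with 143 peaks in TAC-1 and 54 in TAC-3. The richest TAC-3 window was chr7:87000001-88000000, with 113 peaks in TAC-1 and 65 in TAC-3. No window lacked TAC-1 peaks, and 26 (1.17%) lacked TAC-3 peaks. These 26 windows held 10 to 74 TAC-1 peaks and a median of 3 protein-coding genes, against 17 over all windows. The most TAC-1 peaks among them (74) were at chr24:31000001-32000000.

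Peaks of TAC-3 lay almost wholly in genes, and those of TAC-1 less so. Of the peaks on chromosomes, 71.8% in TAC-1 (95% interval 71.6% to 72.0%) and 94.1% in TAC-3 (93.9% to 94.4%) touched a gene, where genes cover 57.6% of the length. Of the shared peaks, 97.0% touched a gene in TAC-1 and 96.9% in TAC-3. Shared peaks of both lists overlap each other by definition, so that the closeness of these shares is largely fixed and is no result. The individuals parted in the private peaks, of which 65.1% touched a gene in TAC-1 and 86.2% in TAC-3. Matching the list length gave 78.5% in TAC-1, with 97.9% of its shared and 64.4% of its private peaks in genes.

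H3K4me3 touched private peaks more often than shared ones in both individuals, with 66.4% of private and 47.1% of shared peaks in TAC-1, and 21.7% of private and 6.85% of shared peaks in TAC-3. The share with H3K4me3, each list set against the H3K4me3 list of its own individual, thus differed between individuals for shared peaks as well. It went up with the score. In the lowest and highest score deciles it was 32.6% and 87.8% of the TAC-1 peaks, against 6.46% and 15.98% of the TAC-3 peaks. Of the length-matched TAC-1 peaks, 83.0% touched H3K4me3, and 93.0% of the private ones among them. In TAC-1, the score of the 101112 peaks that touched H3K4me3 correlated with that of the highest H3K4me3 peak touched (Spearman's rho = 0.53, and 0.65 for width). For the 4364 such TAC-3 peaks, rho was 0.38 for score and 0.41 for width.

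Peaks with and without H3K4me3 also lay in different places. Private TAC-1 peaks with H3K4me3, the largest class (83822 on chromosomes, 52.5% of that list), had their centre outside protein-coding genes and more than 1 kb from a gene boundary in 40.8%. Private TAC-1 peaks without H3K4me3 did so in 25.2% of 42437, and shared TAC-1 peaks in 3.39%. In TAC-3, private peaks with H3K4me3 were outside in 38.2% of 2261 and those without in 7.23% of 8116, and shared peaks were outside in 3.62%. The neighbourhood of gene boundaries, 6.59% of the length, held the centres of 5.47% of the TAC-1 and 5.89% of the TAC-3 peaks. The gene table gives no strand, so starts and ends of genes were not separated.

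With the H3K4me3 peaks of the other individual, this order was kept in TAC-1 and reversed in TAC-3. TAC-3 H3K4me3 touched 8.48% of TAC-1 H3K36me3 peaks, 9.27% of the private and 5.51% of the shared ones, whereas TAC-1 H3K4me3 touched 38.1% of TAC-3 H3K36me3 peaks, 5.21% of the private and 49.8% of the shared ones. Many shared TAC-3 peaks thus fell on regions where the H3K4me3 list of TAC-1 also had a peak. A shared TAC-3 peak touches a TAC-1 H3K36me3 peak by definition, and 47.1% of the shared TAC-1 peaks touched H3K4me3 of TAC-1. The reversed order in TAC-3 is therefore in part fixed by the definition of a shared peak.

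At recombination hotspots, private peaks with H3K4me3 made up more of the H3K36me3 peaks of the same individual than in its whole list. Without matching for width, the private share itself was above that of the whole list in TAC-3 but not in TAC-1. Hotspots were taken as the central 400 bp of the DMC1-SSDS peaks. Of the 129 TAC-1 H3K36me3 peaks at the 616 TAC-1 hotspots, 100 (77.5%, 95% interval 69.6% to 83.9%) were private, against 79.0% of all TAC-1 peaks. Of the 41 TAC-3 H3K36me3 peaks at the 209 TAC-3 hotspots, 29 (70.7%, 55.5% to 82.4%) were private, against 26.3% of all TAC-3 peaks. All 29 touched H3K4me3 of TAC-3, a class that made up 5.72% of the list. In TAC-1, 93 of the 129 peaks (72.1%) were private with H3K4me3, against 52.5% of the list. At hotspots of the other individual, 8 of 14 TAC-1 peaks and 1 of 22 TAC-3 peaks were private. According to the study, the DMC1-SSDS peaks found in both TAC-1 and TAC-3 may be artifacts. They were not removed here, and their part in these counts was not tested. At the 1924 hotspots of RT-52, whose *Prdm9* alleles are each found in 1 of the other individuals, 251 of 357 TAC-1 peaks (70.3%) and 183 of 330 TAC-3 peaks (55.5%) were private. Of these, 236 in TAC-1 and 175 in TAC-3 touched H3K4me3 of the same individual.

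Most protein-coding genes had a peak in TAC-1, and fewer had one in TAC-3. Of the 40693 protein-coding genes on chromosomes, 29590 (72.7%) had at least 1 bp of TAC-1 peak and 15200 (37.4%) of TAC-3 peak, and 15988 (39.3%) had a length-matched TAC-1 peak. Both individuals had a peak in 14492 genes, TAC-1 alone in 15098, TAC-3 alone in 708 and neither in 10395. Genes with a TAC-3 peak were thus nearly all genes with a TAC-1 peak. At least 50% of the gene length was covered in 993 genes in TAC-1 and 1410 in TAC-3, of which 516 were in common. In the 14492 genes with both, cover was close. The median covered share was 13.2% in TAC-1 and 14.1% in TAC-3, it was larger in TAC-1 in 7542 and in TAC-3 in 6940 of these genes, and peaks held 11.2% of their base pairs in TAC-1 against 10.5% in TAC-3. Over these genes, the covered share had a Spearman's rho of 0.76, where both values depend on the same gene length. Of the shortest 20% of genes, 36.1% had a TAC-1 and 10.6% a TAC-3 peak, and of the longest 20%, 97.9% and 52.2%. Overlapping genes share their peaks.

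The genes with the most covered length were long and largely the same. *herc2*, a ubiquitin ligase gene of 251465 bp, had 75910 bp under peaks in TAC-1, against 88274 bp in TAC-3. *dnah2*, an axonemal dynein heavy chain gene of cilia and sperm flagella, had 68894 bp in TAC-1, against 88256 bp in TAC-3. LOC110519948 had 72012 bp in TAC-1, against 147233 bp in TAC-3, the most in that individual. The most in TAC-1 was in LOC110534616, with 126892 bp under 127 peaks in TAC-1 and 47021 bp under 51 peaks in TAC-3. *ubr4*, another ubiquitin ligase gene, had 64150 bp in TAC-1, against 78655 bp in TAC-3, and LOC110503411 had 65846 bp in TAC-1, against 78261 bp in TAC-3.

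Genes of meiosis were marked in both individuals, mostly over more of their length in TAC-3. Of 25 matched genes of meiotic recombination and synapsis, 24 had a TAC-1 peak and 22 a TAC-3 peak, against 72.7% and 37.4% of all protein-coding genes. The median covered share was 15.4% in TAC-1 and 23.0% in TAC-3, against 4.37% in TAC-1 and 0% in TAC-3 over all protein-coding genes. The covered share was larger in TAC-1 in 8 and in TAC-3 in 17 of them. Without peaks touching H3K4me3, the medians were 5.70% in TAC-1 and 21.8% in TAC-3. *sycp1* (chr2:7593323-7609076), the transverse filament of the synaptonemal complex, had 3 TAC-1 peaks of 947, 941 and 259 bp (13.6% of the gene) and TAC-3 peaks of 10681 and 701 bp (72.2%). All 3 TAC-1 peaks lay on the TAC-3 peaks, so that the lists held a few narrow peaks in TAC-1 and a broad, possibly joined one in TAC-3. The broad TAC-3 peak, over 67.8% of the gene, touched H3K4me3 of TAC-3, and no TAC-1 peak of *sycp1* touched H3K4me3 of TAC-1. Without peaks touching H3K4me3, all 3 TAC-1 peaks were left, against the 701 bp peak in TAC-3. *smc1b*, the meiotic cohesin subunit (chr2:92028434-92049230), was covered over 60.2% in TAC-1 and 74.96% in TAC-3, with a peak of about the same width in each (10046 bp in TAC-1, against 10121 bp in TAC-3). *tex11*, a gene of synapsis and crossing over, was covered over 48.7% in TAC-1 and 73.8% in TAC-3. *spo11*, which makes the meiotic double-strand breaks, was covered over 15.4% in TAC-1 and 50.6% in TAC-3. *rec8b*, a meiotic cohesin gene, was at 36.8% in TAC-1 against 50.5% in TAC-3. *terb1*, which attaches telomeres to the nuclear envelope, was at 53.8% in TAC-1 and 41.2% in TAC-3. The single TAC-1 peak of *terb1* touched H3K4me3, and its TAC-3 peak did not.

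Germ cell and piRNA genes had the same pattern. All but 1 of 17 had a peak in each individual, against 72.7% of all protein-coding genes in TAC-1 and 37.4% in TAC-3. In a class of genes of similar length (medians 26361 bp and 26645 bp for the 17), 90.0% had a TAC-1 and 47.8% a TAC-3 peak. The median covered share of the 17 genes was 20.1% in TAC-1 and 25.03% in TAC-3. The covered share was larger in TAC-1 in 5 and in TAC-3 in 11 of them. Without peaks touching H3K4me3, the medians were 8.07% in TAC-1 and 17.2% in TAC-3. *piwil1*, a germline Argonaute that binds piRNAs (chr6:24873223-24885005), had 3 TAC-1 peaks of 4282, 1577 and 1322 bp and a single TAC-3 peak of 9688 bp over all of them, for a covered share of 60.9% in TAC-1 and 82.2% in TAC-3. The Tudor-domain genes of the piRNA pathway *tdrd12* and *tdrd9* were at 46.1% and 40.9% in TAC-1, and at 77.3% and 57.8% in TAC-3. *rnf17*, another Tudor-domain gene, was at 40.4% in TAC-1 against 49.9% in TAC-3, and *mov10l1*, the piRNA helicase, at 35.2% in TAC-1 and 45.5% in TAC-3. *dnd1*, an RNA-binding protein of germ cells, was among the 5 that went the other way, with 42.0% in TAC-1 and 17.2% in TAC-3. The single TAC-1 peak of *dnd1* touched H3K4me3, and its TAC-3 peak did not. In *tdrd12*, peaks touching H3K4me3 of the same individual covered 40.4% in TAC-1 and 77.3% in TAC-3, all of its TAC-3 cover. In *tdrd9*, they covered 29.9% in TAC-1 and 43.8% in TAC-3. Such peaks covered 0% of *piwil1*, *rnf17* and *mov10l1* in TAC-3.

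Of the 9 gene lists, broadly expressed genes had the widest gap in median cover. Of 20 matched genes, 18 had a TAC-1 peak and 16 a TAC-3 peak, against 72.7% and 37.4% of all protein-coding genes. The median covered share was 22.6% in TAC-1 and 52.3% in TAC-3. The ribosomal protein genes *rpl4*, *rps3* and *rpl7a* were at 39.3%, 18.5% and 21.7% in TAC-1, and at 74.3%, 60.4% and 61.4% in TAC-3. *rps8a* was at 43.8% in TAC-1 and 69.7% in TAC-3. *polr2a*, the large subunit of RNA polymerase II, had 1 peak in each individual and nearly equal cover, 68.9% in TAC-1 and 73.7% in TAC-3, as had the chaperone gene *hsp90ab1* (62.5% in TAC-1 and 68.7% in TAC-3). Without peaks touching H3K4me3, 8 of these 20 genes kept a TAC-1 peak and 15 a TAC-3 peak.

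Genes of the H3K36 methylation machinery and its readers had close medians of cover in both lists, but only with the peaks that touched H3K4me3 included. Of 16 matched genes, 15 had a TAC-1 peak and 14 a TAC-3 peak, against 72.7% and 37.4% of all protein-coding genes. In a class of genes of similar length (medians 26361 bp and 27902.5 bp for the 16), 90.0% had a TAC-1 and 47.8% a TAC-3 peak. The TAC-1 count was thus near that of genes of this length. The median covered share of the 16 genes was 23.2% in TAC-1 and 23.9% in TAC-3. Without peaks touching H3K4me3, the medians were 4.54% in TAC-1 and 21.8% in TAC-3. The covered share was larger in TAC-1 in 7 and in TAC-3 in 9 of these genes. *msh6*, a mismatch repair gene whose protein reads H3K36me3, was at 32.7% in TAC-1 and 64.5% in TAC-3. *supt6h*, an elongation factor that binds RNA polymerase II, was at 44.3% in TAC-1 and 62.1% in TAC-3. The H3K36 demethylase genes *kdm2ab* and *kdm2aa* were at 56.9% and 55.9% in TAC-1, and at 57.6% and 50.4% in TAC-3. *nsd2*, an H3K36 dimethyltransferase gene, was at 29.5% in TAC-1 against 41.1% in TAC-3, and *phf19*, a Polycomb subunit that reads H3K36me3, at 26.7% in TAC-1 and 37.9% in TAC-3.

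Genes of somatic cells of the testis had a peak more often in TAC-1 than in TAC-3, a contrast that was nearly lost at equal list length. Of 13 matched Sertoli and Leydig cell genes, 7 had a TAC-1 peak and 1 a TAC-3 peak, against 72.7% and 37.4% of all protein-coding genes. With the length-matched list, 2 of the 13 had a TAC-1 peak (15.4%, against 39.3% of all protein-coding genes). *sox9*, the Sertoli cell transcription factor, had a TAC-1 peak of 1976 bp over 50.6% of the gene and no TAC-3 peak. *hsd3b1*, a steroid synthesis gene, was at 37.9% in TAC-1, and *fshr*, the receptor of follicle-stimulating hormone, at 18.7%, and neither had a TAC-3 peak. *nr5a1a* and *nr5a1b*, which encode the steroidogenic factor, each had 3 narrow TAC-1 peaks (6.01% and 5.99% of the gene) and no TAC-3 peak. *dmrt1*, a male sex determination gene also used in germ cells, was the exception, at 5.97% in TAC-1 and 6.42% in TAC-3. The single TAC-1 peaks of *sox9* and *hsd3b1* touched H3K4me3, and without such peaks 3 of the 13 genes had a TAC-1 peak and 1 a TAC-3 peak.

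Apart from *rag1* and *rag2* in TAC-1, markers of cells that testis should hold few of were at low cover in both. A TAC-1 peak was found in 6 of 10 neuron and glia genes, 4 of 9 liver genes, 4 of 7 muscle genes and 4 of 6 blood and immune genes, and a TAC-3 peak in 1, 1, 0 and 0 of these. With the length-matched list, the TAC-1 counts were 1, 4, 1 and 1, so that much of the contrast went with list length except in the liver genes. The liver share (44.4%) was near the 39.3% of all protein-coding genes with that list, and the other shares lay below it. A TAC-3 peak was found in 37.4% of all protein-coding genes. With all TAC-1 peaks, the 4 shares lay below the 72.7% of all protein-coding genes. The covered share reached 8.58% in TAC-1 among neuron and glia genes (*neurod1*, a neuronal transcription factor) and 8.17% among liver genes (*tat*, tyrosine aminotransferase), and 11.1% among muscle genes (*myog*, a muscle transcription factor). It was high in *rag1* and *rag2*, which encode the recombinase of lymphocyte receptor genes, at 48.1% and 44.9% in TAC-1 and 0% in TAC-3. Each had 1 TAC-1 peak, and both peaks touched H3K4me3 of TAC-1. The part of the makeup of the testes in the difference between lists was not tested.

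**Figure D5:**
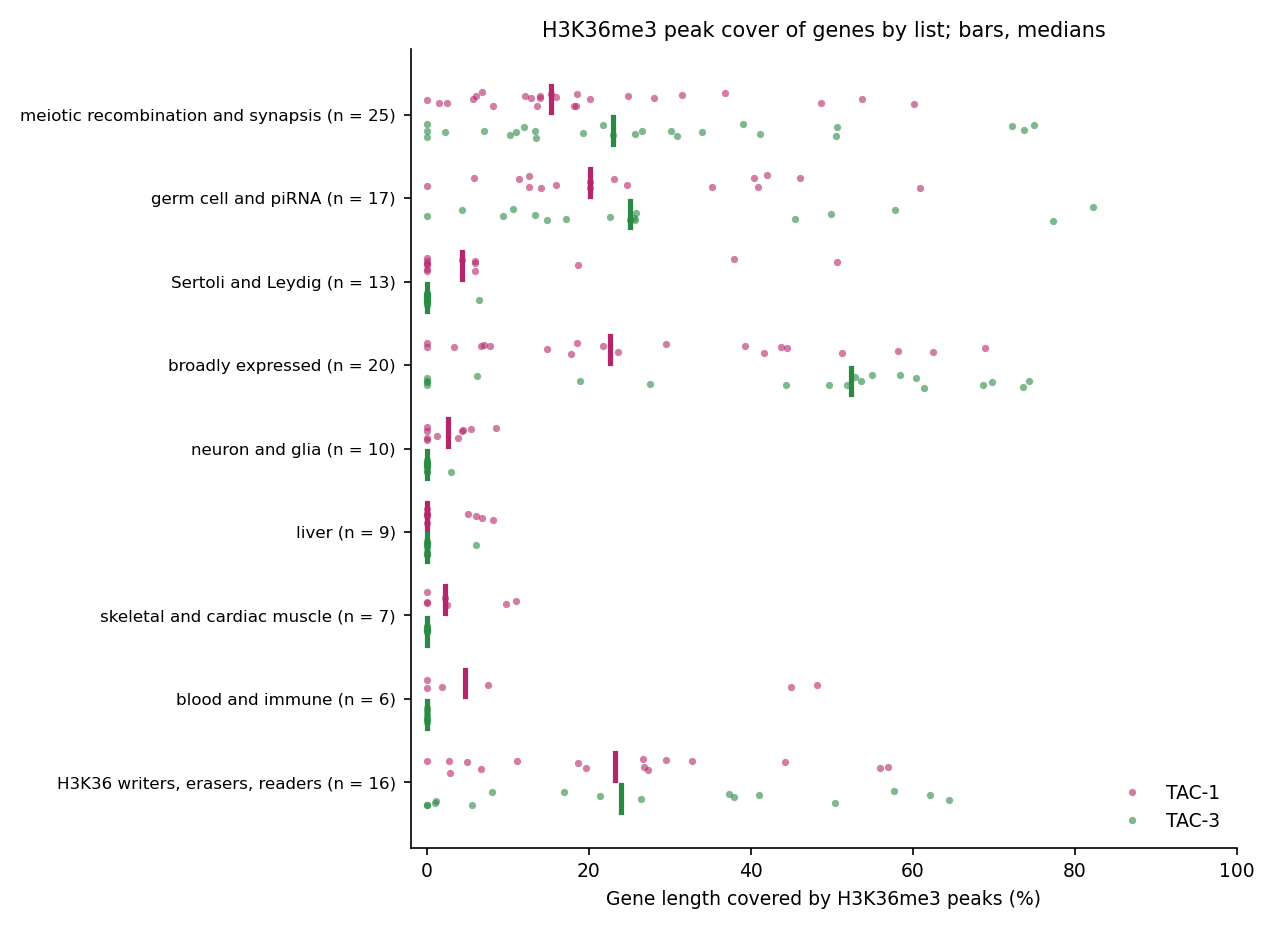
Percentage of each gene's length covered by H3K36me3 peaks (x axis) for the matched genes of 9 lists, with a point per gene and bars at the median, TAC-1 above TAC-3 in each row. Germline and broadly expressed genes are covered in both individuals, with higher medians in TAC-3 (52.3% against 22.6% in TAC-1 for broadly expressed genes), and most genes of somatic lists are at 0 in TAC-3. All TAC-1 peaks are used.

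The largest differences for single genes of at least 10 kb went in both directions. LOC110500261, LOC110518553 and LOC110500253 were covered over 60.7%, 59.8% and 58.0% in TAC-1 and had no TAC-3 peak, as LOC110523670 (47.8% in TAC-1). *c32h5orf49* was at 62.5% in TAC-1 and 9.16% in TAC-3. In the other direction, LOC110527538 was at 5.51% in TAC-1 and 80.9% in TAC-3, LOC110526129 at 1.63% in TAC-1 against 70.5% in TAC-3, and LOC110533851 at 18.3% in TAC-1 and 77.2% in TAC-3. *sycp1* was also among these, 58.6 percentage points lower in TAC-1. In TAC-1, peaks touching H3K4me3 covered 60.7% of LOC110500261, 56.5% of LOC110518553, 36.9% of LOC110523670 and 62.5% of *c32h5orf49*, but 5.59% of LOC110500253. In TAC-3, such peaks covered 55.0% of LOC110526129 and 67.8% of *sycp1*, and 0% of LOC110527538 and LOC110533851. Among genes with a name, chosen after their values were seen, *galk1* (galactokinase) was at 42.1% in TAC-1 and 0% in TAC-3. *nop53* and *utp15*, of ribosome biogenesis, were at 15.1% and 5.77% in TAC-1, and at 72.1% and 59.5% in TAC-3. In *nop53*, 4 TAC-1 peaks of 298 to 745 bp lay on a single TAC-3 peak of 8360 bp. Peaks touching H3K4me3 of the same individual covered 34.9% of *galk1* in TAC-1, and 0% of *nop53* and *utp15* in TAC-3.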

How the data were processed

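H3K36me3 ChIP-seq peak lists of testes of TAC-1 and TAC-3 were analysed, with the H3K4me3 and DMC1-SSDS lists for comparison. The authors aligned reads to USDA_OmykA_1.1 with BWA 0.7.17-r1188, called narrow peaks per replicate against an input with MACS2 2.2.7.1, merged peaks closer than 1 kb and kept regions found in both replicates. Each deposited list holds positions and a score (per the authors, MACS2 scores averaged over merged peaks), which was used to rank peaks within a list and, in 1 alternative, as a minimum of 100 in both lists, although the lists may not share a scale. Merging leaves no gap under 1001 bp. The number of reads behind a peak is unknown. GEO's labels give no *Prdm9* genotype, which was taken from the study's methods.

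Overlaps (at least 1 bp) were computed in Python 3.11.15 (pandas 2.3.3, numpy 2.4.6, and SciPy 1.17.1 for rank correlations), and were checked on simulated data against bedtools 2.31.1. Figures were drawn with matplotlib 3.10.9. In the length-matched list, 4 of 5 peaks tied at the lowest score were kept. Genes were those of the RefSeq table of the assembly (72772, of which 54080 are on chromosomes). It names chromosomes and the lists give accessions, which were paired by the TAC-3 H3K4me3 peaks holding a gene boundary (22.2% to 30.7% of peaks for the pair kept, at most 7.71% for the next best). The last base of any peak or gene set the length of a chromosome. The covered share of a gene is the percentage of its length, start to end, under peaks, joined gaps included.

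The genes named were, per list, at most 6 matched by symbol with the largest covered share, the 5 with the most covered length in each individual, the 5 of at least 10 kb at each extreme of TAC-1 minus TAC-3, and those at or nearest to the 3 highest-score shared and private peaks. Some genes that met these rules are not reported here. The peaks, gene lists and rules were chosen with earlier results of these data known. Peaks touching no H3K4me3 peak, and genes with a peak of the length-matched list, were alternatives chosen after seeing the data. Sequence was not analysed here.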

Additional observations from a re-analysis of the deposited data

How the results depend on the processing

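No paired analysis was possible because each list combines both replicates, and for the same reason no replicate was left out. Each individual is 1 list, so that no value has an error between animals, and the number of reads behind a peak is unknown. The cause of the differences below was not tested.

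With a reciprocal overlap of 25%, the shared peaks were 15.1% in TAC-1 and 59.5% in TAC-3 (length-matched, 32.9% and 32.4%), and peaks with H3K4me3 of the same individual 55.8% and 7.97%. With the centre inside a peak of the other list, they were 17.9% in TAC-1 and 55.2% in TAC-3 (length-matched, 37.5% and 29.7%). With a score of at least 100 in both lists, they were 17.9% in TAC-1 and 77.6% in TAC-3. With the highest 20267 scores of both lists, 40.7% of TAC-1 and 37.6% of TAC-3 peaks were shared. On chromosomes alone, all 4 shares stayed within their intervals. The median width was 392 bp in TAC-1, against 1379 bp in TAC-3 with a score of at least 100, 445 bp and 1209 bp with peaks less than 2000 bp apart joined, and 786 bp in the length-matched TAC-1 list. The median ratio over chromosomes was 1.78 in base pairs and 1.01 with length-matched peaks. The outer 1/30 at each end held 5.22% of TAC-1 and 5.85% of TAC-3 peaks, the outer 20% 34.2% and 36.3%, and the outer 10% 15.3% and 13.7% of covered base pairs, the measure in which TAC-1 was above TAC-3, and 16.7% of length-matched TAC-1 peaks. By their centre, 71.5% of TAC-1 and 93.6% of TAC-3 peaks lay in genes, 70.1% and 92.9% touched protein-coding genes, and 78.5% of length-matched TAC-1 peaks touched genes. Of the length-matched TAC-1 peaks, 83.0% touched H3K4me3.

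In an alternative chosen after seeing the data, peaks touching H3K4me3 of the same individual were taken out of both lists. The shared peaks were then 28.0% in TAC-1 and 42.4% in TAC-3 (length-matched, 39.8% and 36.1%), and the median width 253 bp and 942 bp. Peaks in genes were 81.8% and 96.7%, and the median ratio over chromosomes was 1.71. Shares in the outer 10% stayed within their intervals. The number of protein-coding genes with a TAC-1 peak was 29590, and 15988 with the length-matched list.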

Other observations

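Gene families were looked at after the values of the lists had been seen, and are given as values. Over all protein-coding genes, 72.7% had a TAC-1 peak, 39.3% a length-matched TAC-1 peak and 37.4% a TAC-3 peak. Of 36 ribosomal protein genes (*rpl* and *rps*), 25 (69.4%) had a TAC-1 peak, 12 (33.3%) a length-matched one and 30 (83.3%) a TAC-3 peak, with a median covered share of 20.1% in TAC-1 and 42.8% in TAC-3. The 13 nucleoporin genes, which encode parts of the nuclear pore, had a TAC-1 peak in 13 and a TAC-3 peak in 12, with medians of 26.7% in TAC-1 and 40.6% in TAC-3. Of 18 proteasome subunit genes, 14 (77.8%) had a TAC-1 and 10 (55.6%) a TAC-3 peak, with medians of 8.45% in TAC-1 and 12.1% in TAC-3. The developmental transcription factor genes of both families looked at had no TAC-3 peak, but these genes were short. Their median length was 3246.5 bp (*hox*) and 3388 bp (*sox*). Of the shortest 20% of protein-coding genes (median 2714 bp), 36.1% had a TAC-1 and 10.6% a TAC-3 peak. Of 24 *hox* genes, 4 had a TAC-1 peak and 0 a TAC-3 peak, and of 13 *sox* genes, 9 (69.2%) had a TAC-1 peak and 0 a TAC-3 peak. The share of *sox* genes with a TAC-1 peak was thus near that of all genes, and with the length-matched list it was 2 of 13, against 0 of 24 *hox* genes. In these *hox* and *sox* genes, the mean covered share in TAC-1 was 1.57% and 15.8%, of which 1.57% and 15.3% lay in peaks that touched H3K4me3. Of 26 collagen genes, 22 (84.6%) had a TAC-1 peak, 14 (53.8%) a length-matched one and 6 (23.1%) a TAC-3 peak, with a median covered share of 2.60% in TAC-1 and 0% in TAC-3. Collagen genes were long (median 55519.5 bp). Of the longest 20% of protein-coding genes (median 75425 bp), 97.9% had a TAC-1 and 52.2% a TAC-3 peak. Of 10 axonemal dynein heavy chain genes, 10 had a TAC-1 and 7 a TAC-3 peak. Their median cover by TAC-1 peaks was 20.1%, above the 12.2% by TAC-3 peaks. TAC-1 covered more of 5 of these genes, and TAC-3 more of the other 5. *dnah10* and *dnah12* reached 55.3% and 60.6% in TAC-3, but also 50.4% and 57.1% in TAC-1. *dnah5l*, *dnah9* and *dnah9l* lacked a TAC-3 peak.

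Small nucleolar RNA (snoRNA) genes had a peak more often in TAC-3 than in TAC-1. Of 654 snoRNA genes, 215 (32.9%) had a TAC-1 peak and 323 (49.4%) a TAC-3 peak, 201 of them in both. Many snoRNAs are made from introns of host genes, and 412 of these 654 overlapped protein-coding genes. The 205 protein-coding genes they overlapped had a TAC-1 peak in 188 and a TAC-3 peak in 189, with a median covered share of 28.4% in TAC-1 and 50.5% in TAC-3. Of 3897 lncRNA genes, 986 (25.3%) had a TAC-1 peak, 288 (7.39%) a length-matched one and 275 (7.06%) a TAC-3 peak. Of 5441 tRNA genes, 14 had a TAC-1 peak and 18 a TAC-3 peak, and of 592 rRNA genes, 3 and 2.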
